A study of Mus musculus with 4 samples.

Results

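The 9 transcripts described here are genes that mark neutrophils or are induced in acute inflammation: S100a8, S100a9, Retnlg, Cxcr2, Csf3r, Il1r2, Il1b, Slpi and Hdc. They were chosen by name, and all 9 are among the 32285 features of the deposited spatial count matrices, of which 23415 held at least 1 unique molecular identifier (UMI, the tag that counts 1 captured transcript). Sections of mouse cortex were placed on Visium slides, on which each barcoded spot collects the transcripts of a small patch of tissue that can hold several cells. Cortical injury was photothrombotic (PT): the dye Rose Bengal was activated in the vessels by white light on the cortex, and time is given as days post injury (dpi). Each of 4 capture areas carried 2 slices, each from a different mouse, so that 8 mice were measured.

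The groups were uninjured cortex (rest, 1 slice), wild-type cortex at 2 dpi (1 slice), at 7 dpi (2 slices) and at 21 dpi (2 slices), and 21 dpi cortex of deleter mice (2 slices). Deleter mice carry Cthrc1(creER), a tamoxifen-inducible Cre driven by the gene of a fibroblast protein, and R26(DTA), a diphtheria toxin gene that Cre switches on, and were made to remove Cthrc1-expressing cells. According to the study the deletion could not be detected in these slices, and it left them out. Rest and 2 dpi shared a capture area, and the labels do not say which piece of tissue is which: the smaller piece is taken as rest and the larger as 2 dpi, from the outlines shown in the study. Every other time point and genotype had a capture area of its own, so that time, genotype and area cannot be told apart. The labels give neither age nor sex. Xist, which is transcribed in female cells, had 1013 to 1597 UMIs at rest, at 2 dpi, in both 7 dpi slices and in 1 deleter slice, and 1 to 19 UMIs in both wild-type 21 dpi slices and the other deleter slice, so that the 7 and 21 dpi slices also differed in sex.

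Neutrophils are short-lived white blood cells that leave the blood early after tissue injury. S100A8 and S100A9 pair to form calprotectin, which is abundant in the neutrophil cytoplasm and acts on receptors such as TLR4 once released. Chemokines that bind CXCR2 draw the cells into tissue, granulocyte colony-stimulating factor (G-CSF) sustains them through CSF3R, and interleukin-1 (IL-1) is among the first signals of sterile inflammation.

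Slices held 827 to 1726 spots and 11332780 to 23677298 UMIs. The 2 dpi slice stood apart in depth, with a median of 2634 UMIs per spot against 12447 to 16158 in the other 7 slices, and 777 of its 1726 spots (45.0%) held under 2000 UMIs against at most 2.83% of spots elsewhere. Levels are therefore given as UMIs per 10000 UMIs of the slice or spot class, with exact 95% Poisson intervals that cover counting error only. Neuronal tissue was present in every slice: the summed level of 6 neuronal markers was 25.1 to 46.8 per 10000 in the 8 slices. These markers do not tell cortex from other brain tissue. The summed level of 4 epithelial and choroid plexus markers ran from 3.4 per 10000 in the second 7 dpi slice to 191 at 2 dpi. The slices were thus not matched for such tissue. Ly6g, the surface antigen by which mouse neutrophils are usually sorted, had 0 to 3 UMIs in every slice, so no result here rests on it.

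S100a8 and S100a9 lie 22596 bases apart on chromosome 3 and are transcribed toward each other (GRCm38: S100a8 at chr3:90668978-90670035 on the plus strand, S100a9 at chr3:90692632-90695721 on the minus strand). The bases just upstream of these genes, of Retnlg and of Il1b are printed because these 4 genes include the most abundant pair and the cytokine of the group, and because all 4 stretches hold a match to TTNNGNAA, letters bound by the C/EBP factors of myeloid cells. Capitals mark matches on either strand to that motif or to GAGGAA, bound by PU.1, the lineage factor of myeloid cells. For S100a8 only 157 bases are printed, up to the gene start given above, which lies before the RefSeq start. A second GAGGAA match, 36 to 31 bases before the RefSeq start, lies in the part not printed. Sequences are from RefSeq on GRCm38.p6, 5′ to 3′ on the strand of the gene.
S100a8, chr3:90668821-90668977, plus strand: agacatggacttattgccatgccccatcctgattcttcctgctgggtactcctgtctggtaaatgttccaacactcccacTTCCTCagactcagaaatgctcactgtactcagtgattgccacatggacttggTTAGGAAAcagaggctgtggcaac
S100a9, chr3:90695722-90695971, minus strand: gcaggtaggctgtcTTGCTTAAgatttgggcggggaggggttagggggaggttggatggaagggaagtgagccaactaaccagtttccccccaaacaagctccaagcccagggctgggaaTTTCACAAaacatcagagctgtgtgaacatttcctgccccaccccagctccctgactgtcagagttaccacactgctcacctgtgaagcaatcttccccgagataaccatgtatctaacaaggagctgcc
Retnlg, chr16:48872358-48872607, plus strand: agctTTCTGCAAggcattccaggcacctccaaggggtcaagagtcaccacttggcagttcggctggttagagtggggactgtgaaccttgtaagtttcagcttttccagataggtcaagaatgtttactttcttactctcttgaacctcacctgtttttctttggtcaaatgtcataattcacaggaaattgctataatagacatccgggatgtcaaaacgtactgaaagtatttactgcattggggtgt
Il1b, chr2:129371140-129371389, minus strand: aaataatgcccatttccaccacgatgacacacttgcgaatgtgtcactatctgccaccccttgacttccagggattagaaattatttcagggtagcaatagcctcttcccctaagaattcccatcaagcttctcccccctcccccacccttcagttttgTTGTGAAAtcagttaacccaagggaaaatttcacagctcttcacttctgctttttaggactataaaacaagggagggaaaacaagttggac

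All 9 genes had a RefSeq promoter. Within the 250 bases before the start, TTNNGNAA was found for 5 of the 9 (the 4 above and Slpi) and in 36.9% of 32851 mouse promoters. GAGGAA was found for 3 of the 9 (S100a8, Cxcr2 and Csf3r) and in 23.2% of all promoters. The NF-kappaB motif (GGGA, then CC after 4 bases of any kind) was found for Csf3r alone, against 17.6% of all promoters, and the AP-1 letters TGANTCA were found for none of the 9, against 6.75%. A match describes these letters in this window and shows no binding.

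S100a8 was scarce at rest and, per UMI, highest at 2 dpi. It had 11 UMIs at rest, 820 at 2 dpi, 100 in each 7 dpi slice, 334 and 634 in the 21 dpi slices, and 433 and 234 in the deleter slices. Per 10000 UMIs this was 0.00673 at rest, 0.626 at 2 dpi, 0.0666 and 0.074 at 7 dpi, 0.191 and 0.559 at 21 dpi, and 0.337 and 0.0988 in deleter mice. Both 7 dpi slices lay between rest and every 21 dpi slice, and the deleter slices overlapped the range of the wild-type 21 dpi slices only in part, with 1 below it. S100a9 had 13 UMIs at rest, 963 at 2 dpi, 97 and 109 at 7 dpi, 498 and 733 at 21 dpi, and 669 and 351 in deleter slices. Per UMI the order was again rest, 7 dpi, 21 dpi and 2 dpi. Per 100 spots, in which the 2 dpi slice was far shallower than the others, S100a8 had 47.5 UMIs at 2 dpi, 76.7 in the second 21 dpi slice and 47.5 in the first deleter slice, and S100a9 had 55.8, 88.6 and 73.4, so that 2 dpi was not the highest on that scale. In the counts, S100a9 outnumbered S100a8 by 1.16 to 1.55 in each 21 dpi slice, deleter slices included, against 0.97 to 1.18 in the other 4.

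Single spots held much of the pair in some slices. In the second 21 dpi slice 1 spot carried 428 of the 634 S100a8 UMIs (67.5%) and 476 of the 733 S100a9 UMIs (64.9%). That spot also held 74 UMIs of Ngp, 79 of Camp and 33 of Ltf, which encode proteins of the secondary granules that neutrophil precursors make. Without it the slice fell to 0.182 per 10000 for S100a8 and 0.227 for S100a9, next to the 0.191 and 0.285 of the other 21 dpi slice with all its spots. In the second 7 dpi slice 1 spot held 41 S100a8 and 53 S100a9 UMIs, and at 2 dpi the richest spot held 96 and 133, so the level at 2 dpi did not rest on 1 spot. The 10 richest spots for each gene still held 42.2% of S100a8 and 45.2% of S100a9 UMIs at 2 dpi.

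**Figure D1:**
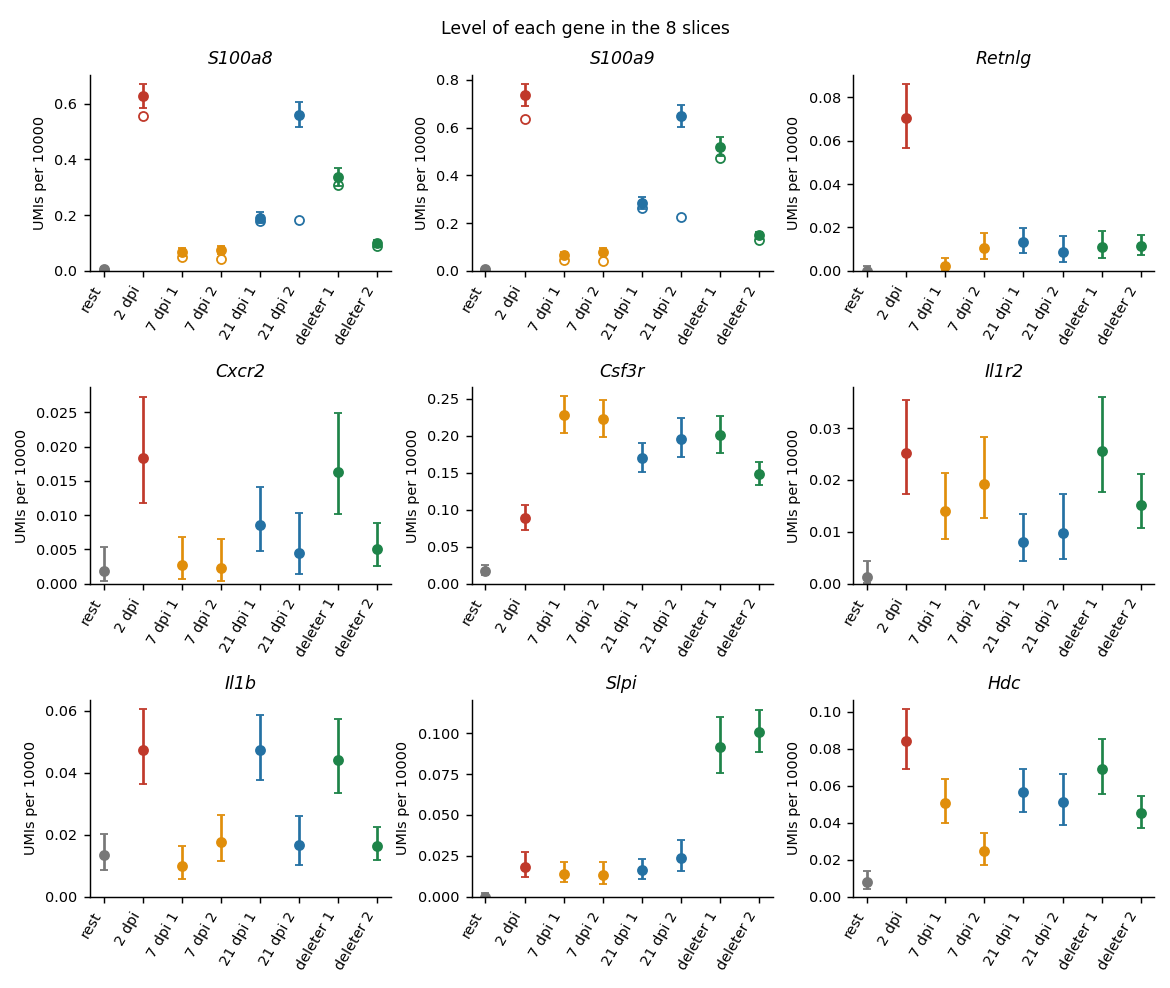
UMIs per 10000 UMIs of each of the 9 genes in the 8 slices. Bars are exact 95% Poisson intervals, which cover counting error only, and open circles give S100a8 and S100a9 without the spot that holds the most UMIs of that gene. On this scale S100a8 and S100a9 peak at 2 dpi, Csf3r at 7 dpi and Slpi in the deleter slices.

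Retnlg, which encodes a resistin-like protein that neutrophils make, had 0 UMIs at rest, with an upper interval limit of 0.002255 per 10000, and 92 UMIs (0.0703 per 10000) at 2 dpi. Later slices held 3 and 14 UMIs at 7 dpi, 23 and 10 at 21 dpi and 14 and 27 in deleter mice, all below 2 dpi. Cxcr2 was the scarcest of the 9 genes, with 3 UMIs at rest, 24 at 2 dpi, 4 and 3 at 7 dpi, 15 and 5 at 21 dpi, and 21 and 12 in deleter mice. At these counts the later slices cannot be put in order.

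Csf3r, the G-CSF receptor, was ordered differently from the calprotectin pair. It had 29 UMIs at rest (0.0177 per 10000), 116 at 2 dpi (0.0886), 342 and 300 at 7 dpi (0.228 and 0.222), 296 and 222 at 21 dpi (0.169 and 0.196), and 258 and 351 in deleter mice (0.201 and 0.148). The 7 dpi slices were the highest, 2 dpi lay below every later slice, and the intervals of neighbouring later slices overlapped. It was also the most widely detected member at 7 dpi, with a UMI in 26.8% and 23.3% of spots.

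Il1b, the secreted IL-1 beta, had 22 UMIs at rest, 62 at 2 dpi, 15 and 24 at 7 dpi, 83 and 19 at 21 dpi, and 57 and 39 in deleter mice. The 2 dpi level of 0.0474 per 10000 was close to that of the first 21 dpi slice (0.0474), and at 21 dpi each genotype had 1 slice near that level (0.0474 and 0.0443) and 1 lower (0.0168 and 0.0165). Il1r2, the decoy receptor that binds IL-1 without signalling, had 2 UMIs at rest, 33 at 2 dpi, 21 and 26 at 7 dpi, 14 and 11 at 21 dpi, and 33 and 36 in deleter mice. Slpi, a secreted inhibitor of neutrophil elastase, had 0 UMIs at rest, 24 at 2 dpi, 21 and 18 at 7 dpi, 28 and 27 at 21 dpi, and 118 and 239 in deleter mice. The deleter slices were the highest for Slpi at 0.0917 and 0.101 per 10000, against 0.0133 to 0.0238 in all other injured slices.

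Hdc, the enzyme that makes histamine from histidine, had 13 UMIs at rest, 110 at 2 dpi, 76 and 33 at 7 dpi, 99 and 58 at 21 dpi, and 89 and 107 in deleter mice. Its levels ran from 0.00795 per 10000 at rest to 0.084 at 2 dpi, with the later slices between at 0.0244 to 0.0692.

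The first comparison asked how 2 dpi cortex differed from uninjured cortex. S100a8 was 93.1 times as abundant at 2 dpi as at rest (95% interval 51.8 to 187) and S100a9 92.6 times (53.9 to 174). Per spot the ratios were 43.9 and 43.7, among spots of at least 8000 UMIs 64.1 and 54.8, and without the spot richest in the pair in each slice 151 and 207, since the rest slice then kept 6 and 5 UMIs. Retnlg was at least 38.3-fold higher and Slpi at least 9.995-fold higher, both against the floor of 3 counts that stands in for their 0 at rest. Here and below, a ratio given as at least rests on that floor, has no interval and is no confidence limit. Il1r2 was 20.6-fold (5.27 to 177), Hdc 10.6-fold (5.93 to 20.5), Cxcr2 9.995-fold (3.04 to 51.9) and Csf3r 4.997-fold (3.3 to 7.79) higher, while Il1b stood at 3.52-fold (2.13 to 6.01). By these values 8 of the 9 genes lay past 4-fold on the high side, where 7.01% of the 15197 genes with at least 20 UMIs over both slices did so and 0.309% lay past it on the low side. The median ratio was 10.6 over the 9 genes and 1.04 over all genes. With 1 slice each there is no test, and the intervals leave out the difference between mice. In such tissue fewer cells of a type and less RNA per cell cannot be told apart.

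The wide gap in depth between these slices was met in several ways. Counted per spot instead of per UMI, 7 of the 9 genes were at least 4-fold higher, while over all 15197 genes 511 were higher and 694 lower by that much. Among spots with at least 8000 UMIs 5 of the 7 with enough UMIs were higher (S100a8, S100a9, Retnlg, Il1r2 and Hdc), beside 1082 of 15039 genes, and Csf3r fell to 3.75-fold. With every spot thinned to 500 UMIs, S100a8 or S100a9 was found in 8.71% of 2 dpi spots (7.38 to 10.2; 107 shallower spots left out) and in 0.0985% of rest spots (0.00249 to 0.548). Before thinning, 359 of 1726 spots (20.8%) at 2 dpi and 11 of 1017 spots (1.08%) at rest held either transcript.

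Of 28 other neutrophil genes, 15 had enough UMIs and 10 were past 4-fold, all higher at 2 dpi, with a median ratio of 8.72. Lcn2, an iron-chelating defence protein that astrocytes also make, was 93.1-fold higher (1564 UMIs against 21), Clec4d at least 44.1-fold, Wfdc21 at least 15.4-fold and Mmp8, the neutrophil collagenase, at least 13.7-fold. Of the granule genes that neutrophil precursors transcribe, Elane, Ctsg and Ltf had 0 UMIs at 2 dpi, Camp and Mpo 1 and Ngp 3, whereas Prtn3 had 32 at 2 dpi and 26 at rest (1.54-fold, 0.888 to 2.69). A list of 9 genes held CXCR2 ligands and genes of other colony-stimulating factors and receptor chains (Csf3, Csf2, Csf2rb and Csf2rb2). Of these 6 had enough UMIs and all 6 were past 4-fold. Among them were the CXCR2 ligands Cxcl5 (43.6-fold, 279 UMIs against 8), Cxcl1 (at least 35.4-fold) and Cxcl2 (15.6-fold). Csf3, the gene of G-CSF, had 4 UMIs at 2 dpi and 1 at rest, too few to be counted.

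In the IL-1 axis 4 of 13 genes were past 4-fold, with a median of 3.51. Il1rn, the receptor antagonist, led at 47.5-fold (38 UMIs against 1), Tlr4 and Cd36 were past the limit among 3 measurable S100A8/A9 receptors at 5.77-fold and 11.6-fold, and 8 of 13 acute inflammation genes did so with a median of 13.9. These included Ptx3 (131-fold), Ccl3 (127-fold), Socs3 (13.9-fold) and Hmox1, which breaks down haem (28.9-fold). Selp, the P-selectin by which vessels catch leukocytes, was at least 18.3-fold higher, and 3 of 7 adhesion genes were past the limit. In the histamine list 1 of 5 was, Slc18a2 (19 UMIs against 2), and the median of 0.691 lay below that of all genes.

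Other cell types moved with this contrast. The summed level of 4 epithelial and choroid plexus markers was 191 per 10000 at 2 dpi and 5.34 at rest, that of 5 monocyte markers 0.491 and 0.0196, and that of 5 macrophage markers 2.34 and 0.194. Red cell markers ran the other way, at 2.3 per 10000 at 2 dpi and 18.9 at rest. The part of these lists in the values above was not tested.

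Nearly all RNA-poor spots at 2 dpi formed 1 area, and the next question was where the 9 genes lay relative to it. Of the 777 spots under 2000 UMIs, 761 were connected, and they reached up to 10 spot steps from the border inward. S100a8 and S100a9 together went from 1.18 per 10000 at 4 to 6 steps inside the border (20 UMIs) to 5.39 at 2 to 3 steps and 8.34 in the last row of the area (267 UMIs). Outside they stood at 6.92 in the first row (422 UMIs), 4.71 in the second, 1.33 at 3 to 4 steps and 0.218 at 5 to 8 steps. Per UMI the pair was thus densest in a band on both sides of the border. Per 100 spots it had 54.5 UMIs at 2 to 3 steps inside, 99.6 in the last inner row, 229 and 318 in the first and second outer rows and 176 at 3 to 4 steps outside, so that on this scale it was highest 2 steps outside. The first outer row included the richest spot, and without the richest spot of each ring the levels were 4.42, 7.1, 3.26, 3.99, 1.01 and 0.179 in the same order from 2 to 3 steps inside, so that per UMI the last inner row was still the highest. At 9 or more steps outside, 203 of 301 UMIs came from 1 spot.

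**Figure D2:**
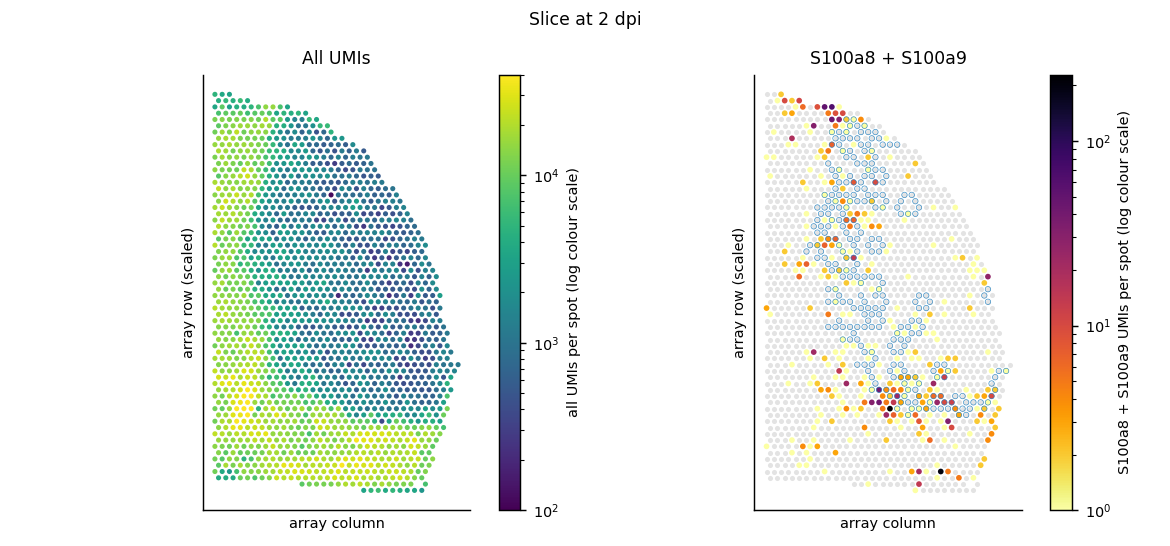
Maps of the 2 dpi slice by array column and row, with one point per spot: all UMIs (left) and UMIs of S100a8 and S100a9 together (right), both on log colour scales with spots at 0 in grey. Blue outlines mark spots 1 step inside the border of the RNA-poor area, along parts of which the pair is dense, while the depth of the area holds few of its UMIs.

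**Figure D3:**
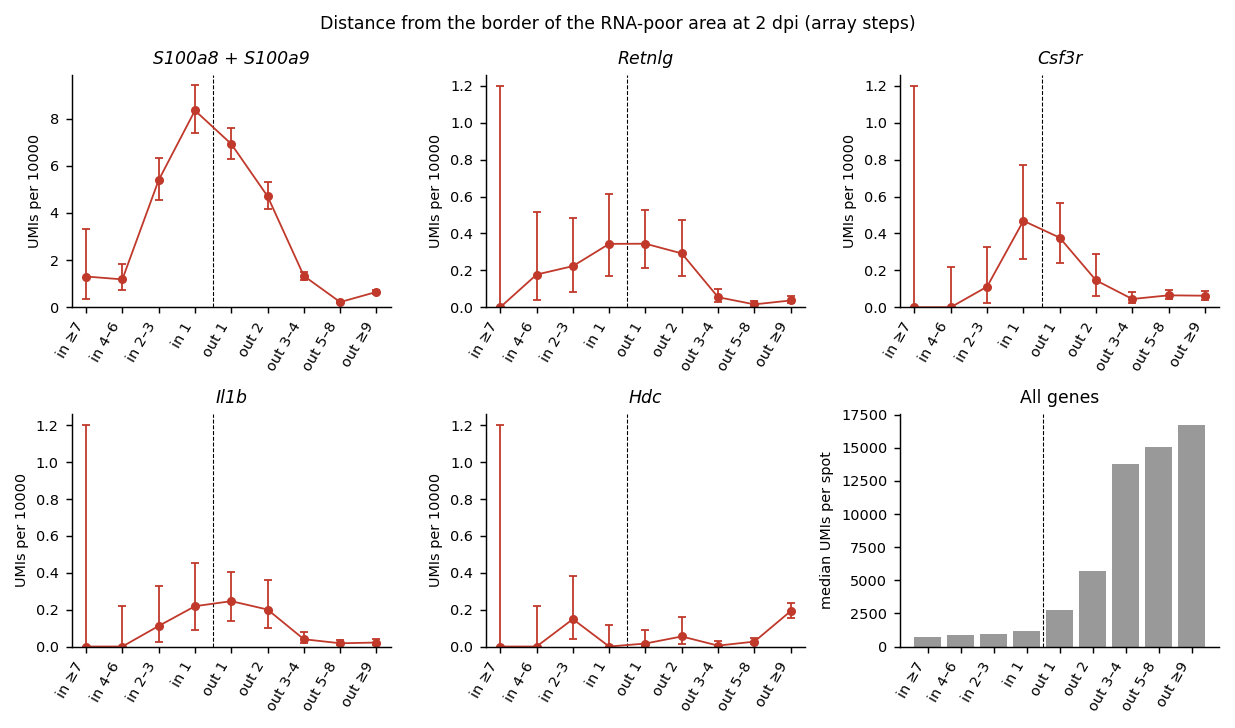
UMIs per 10000 UMIs of S100a8 with S100a9, Retnlg, Csf3r, Il1b and Hdc, and median UMIs per spot, by distance in array steps from the border of the RNA-poor area at 2 dpi (dashed line). Bars are exact 95% Poisson intervals, S100a8 and S100a9 together peak per UMI at 8.34 in the last row inside, where spots are shallow, and Hdc peaks at 0.192 at 9 or more steps outside.

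Spots within 3 steps of the border made up 50.8% of the slice and 19.98% of its UMIs. They held 71.2% of the UMIs of S100a8, 69.6% of S100a9, 65.2% of Retnlg, 83.3% of Cxcr2, 62.9% of Il1b and 58.3% of Slpi. Csf3r with 44.8% and Il1r2 with 39.4% were lower, and Hdc with 7.27% lay below the share of all UMIs. The same band held 84.8% of Mmp8, 63.9% of the monocyte gene Chil3 and 38.6% of the haemoglobin gene Hbb-bs. It also held 82.8% of the 29 UMIs of the CXCR2 ligand Ppbp and 72.0% of Thbs1, an extracellular protein of platelets and macrophages. Other genes that were high at 2 dpi lay elsewhere: the band held 14.9% of Lcn2, 3.94% of Cxcl5 and 1.32% of Ttr, the choroid plexus transcript.

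Against the RNA-rich spots of the same slice (at least 8000 UMIs, 651 spots), RNA-poor spots held 2.99 S100a8 UMIs per 10000 against 0.367, a ratio of 8.16 (6.93 to 9.59). S100a9 gave 6.33 (5.4 to 7.41), Slpi 6.85 (2.34 to 18.1), Retnlg 5.08 (2.88 to 8.62) and Il1r2 4.17 (1.51 to 10.0). Csf3r at 3.58 (2 to 6.07) and Il1b at 3.51 (1.56 to 7.17) stayed under 4-fold, and Hdc ran the other way with 4 UMIs against 100, a ratio of 0.548 (0.146 to 1.45). Cxcr2, with 10 UMIs against 7, had too few to be counted. Of the 8 genes with enough UMIs 5 were past 4-fold, against 0.337% of 13962 genes (1.28% past it on the low side). Most other neutrophil genes did not follow: 3 of 13 with enough UMIs were past 4-fold, with a median ratio of 1.46. In that list Mmp8 stood at 12.65 and Lcn2 at 0.43. Of the 4 measurable genes of the list of CXCR2 ligands and colony-stimulating factor genes (Cxcl1, Cxcl5, Csf2rb and Csf2rb2) 0 were past 4-fold. The CXCR2 ligand Ppbp, with 11 UMIs in RNA-poor and 4 in RNA-rich spots, had too few to be counted.

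The ordering of the members held per UMI and not per spot. Per 100 spots, RNA-poor spots held 31.3 S100a8 UMIs against 62.7 in RNA-rich spots, a ratio of 0.499, and the ratio was 0.387 for S100a9, 0.31 for Retnlg, 0.255 for Il1r2 and 0.419 for Slpi. Per spot, 13918 of 13962 genes were at least 4-fold lower in RNA-poor spots, among them Csf3r, Il1b and Hdc, while per UMI the median ratio over all genes was 0.934. After thinning to 500 UMIs, either transcript was found in 13.9% of RNA-poor spots (11.3 to 16.7), 10.1% of spots between 2000 and 8000 UMIs (6.9 to 14.1) and 2.76% of RNA-rich spots (1.65 to 4.34). Against the spots of 2000 to under 8000 UMIs no member was past 4-fold. Haemoglobin transcripts and Pf4, 1 gene of the platelet list, also took a larger share in RNA-poor spots (Hbb-bs 4.96-fold, Pf4 9.37-fold). In the platelet list Itga2b ran the other way (2 UMIs against 57, 0.481-fold), and Ppbp and Gp9 had too few UMIs to be counted. The summed red cell markers stood at 8.64 per 10000 in RNA-poor spots against 1.66 in RNA-rich spots. Their part in the values of the 9 genes was not tested.

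Spots with S100a9 at 2 dpi were compared with the other spots of that slice for the remaining members. S100a8 was present in 46.9% of the 239 spots with S100a9 and in 8.07% of the others, and Retnlg in 14.6% and 0.874%. Of the 48 Retnlg spots 72.9% also held S100a9, as did 68.2% of the 22 Cxcr2 spots, 63.2% of the 19 Slpi spots and 94.7% of the 19 Wfdc21 spots. For Il1b the shares were 7.95% and 1.55%, and for Csf3r 12.6% and 4.98%. Hdc was in 4.6% of S100a9 spots and 4.3% of the others at 2 dpi. Later the Hdc shares varied between slices, at 4.88% and 4.91%, and 11.1% and 2.63% at 7 dpi, at 17.1% and 4.68%, and 2.53% and 3.88% at 21 dpi, and at 26.7% and 4.2%, and 16.1% and 4.54% in deleter slices. These shares describe spots within slices, depend on depth and have no test. Median UMIs of S100a9 spots and of the others were near at 2 dpi (2684 and 2627). S100a9 spots were shallower than the others in both 7 dpi slices (13469 and 14582 in the first). They were deeper in every 21 dpi slice, deleter included, with 16620.5 and 12201 in the first wild-type and 20278 and 12894.5 in the first deleter slice.

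The label of the group was least clear for Hdc. Genes were ranked by the lowest of their ratios, in Hdc spots over other spots, in the 7 injured slices. The leading genes were Rsph1 (8.36 to 16.9), Sntn, Ccdc153, Tmem212, Dynlrb2 and Cfap43, all genes of motile cilia, named after their values were seen. The 6 genes were picked by their excess in Hdc spots of these same slices. The Hdc shares that follow are raised by that choice. Spots with a UMI of any of these 6 genes were 13.1% of the 2 dpi slice and held 85.5% of its Hdc UMIs, 26.4% of all UMIs and 3.98% of the S100a8 and S100a9 UMIs. In the other injured slices they held 51.5% to 87.9% of Hdc UMIs on 15.3% to 24.9% of spots. Their share of the S100a8 and S100a9 UMIs was 11.2% and 3.83% at 7 dpi, 40.6% and 8.41% at 21 dpi, and 80.1% and 28.0% in deleter slices, so the separation seen at 2 dpi did not hold in every slice. The epithelial and choroid plexus list was 4.91 to 22.9 times as high in Hdc spots as elsewhere in all 8 slices. All 6 cilia genes were, like Hdc, higher per 10000 UMIs at 2 dpi than at rest. Rsph1 stood at 0.033 at rest and 0.212 at 2 dpi, Sntn at 0.00673 and 0.0901, and Ccdc153 at 0.0251 and 0.22. Tmem212 stood at 0.0177 and 0.196, Dynlrb2 at 0.0165 and 0.228, and Cfap43 at 0.0128 and 0.0649. The part of such cells in the Hdc ratio was not tested. Mast cells and basophils are known sources of histamine. The mast cell genes Cpa3, Tpsb2, Tpsab1, Mcpt4, Cma1 and Ms4a2 had 0 UMIs at rest and at 2 dpi, where Kit was the only marker of the list detected. In the first 7 dpi slice Tpsb2 and Cma1 were detected as well. From the second 7 dpi slice on more were present, with Mcpt4 at 20, 40, 5, 32 and 39 UMIs and Cma1 at 25, 38, 4, 21 and 35. The part of these cells in the Hdc level was not tested.

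Csf3r also followed other cells besides the calprotectin pair. Ranked by the lowest of their 8 slice ratios, the leading genes of Csf3r spots were Fcgr3 (2.06 to 3.77), Laptm5, C1qb, Itgam, Csf1r and C1qc, which microglia and macrophages express. The summed microglial list was 1.79 to 3.16 times as high in Csf3r spots as in other spots of the same slice. The summed neutrophil list, which includes Csf3r's companions but leaves out Csf3r itself, was 3.17 to 13.9 times as high in Csf3r spots in the 2 dpi and 21 dpi slices, deleter included, and 0.587 and 0.631 times as high at 7 dpi. These ratios depend on single spots. The spot richest in S100a8 and S100a9 held 0 Csf3r UMIs in both 7 dpi slices, with 26 and 32, and 41 and 53 UMIs of the pair. In the second 21 dpi slice that spot held 1 Csf3r UMI beside 428 and 476 of the pair. Microglial markers were highest at 7 dpi (14.9 and 16.2 per 10000 against 2.46 at rest and 5.15 at 2 dpi), the time at which Csf3r was highest, and their part in its level was not tested.

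Spots with S100a8 or S100a9 were led over 7 slices by Ccr2 (2.78 to 6.06), the chemokine receptor of monocytes, Lyz2, Wfdc17 and Plac8. Slpi spots were led in 4 slices by Saa3 (6.89 to 20.5), an acute phase protein, and by the antibody genes Igkc (6.81 to 37.7) and Igha. All 4 were slices at 21 dpi, deleter included, since only these had the 20 Slpi spots required for the ranking. Plasma cell markers summed to 0.00856 to 0.0266 per 10000 up to 7 dpi and to 1.91 to 6.74 in the 21 dpi slices, deleter included. These leading genes were found from the same spots and were named after their values were seen.

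Positive spots lay next to each other. At 2 dpi 37.6% of the neighbours of a spot with S100a8 or S100a9 also held one, against 20.8% of all spots. At 7 dpi the shares were 20.5% against 9.41% and 18.6% against 8.55%, and at 21 dpi 46.1% against 14.5% and 47.0% against 15.1%. The deleter slices gave 45.1% against 14.3% and 39.5% against 7.86%. At rest, none of the 11 positive spots touched another. In the deleter slices Slpi gave 39.5% and 36.5% of neighbours against 5.82% and 6.66% of spots. In the wild-type injured slices it ran from 0% against 1.64% to 14.3% against 1.8%, both at 7 dpi. Hdc gave 43.2% against 4.34% at 2 dpi. In the later slices Hdc ran from 10.3% against 2.96% to 34.6% against 4.91%, both at 7 dpi.

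**Figure D4:**
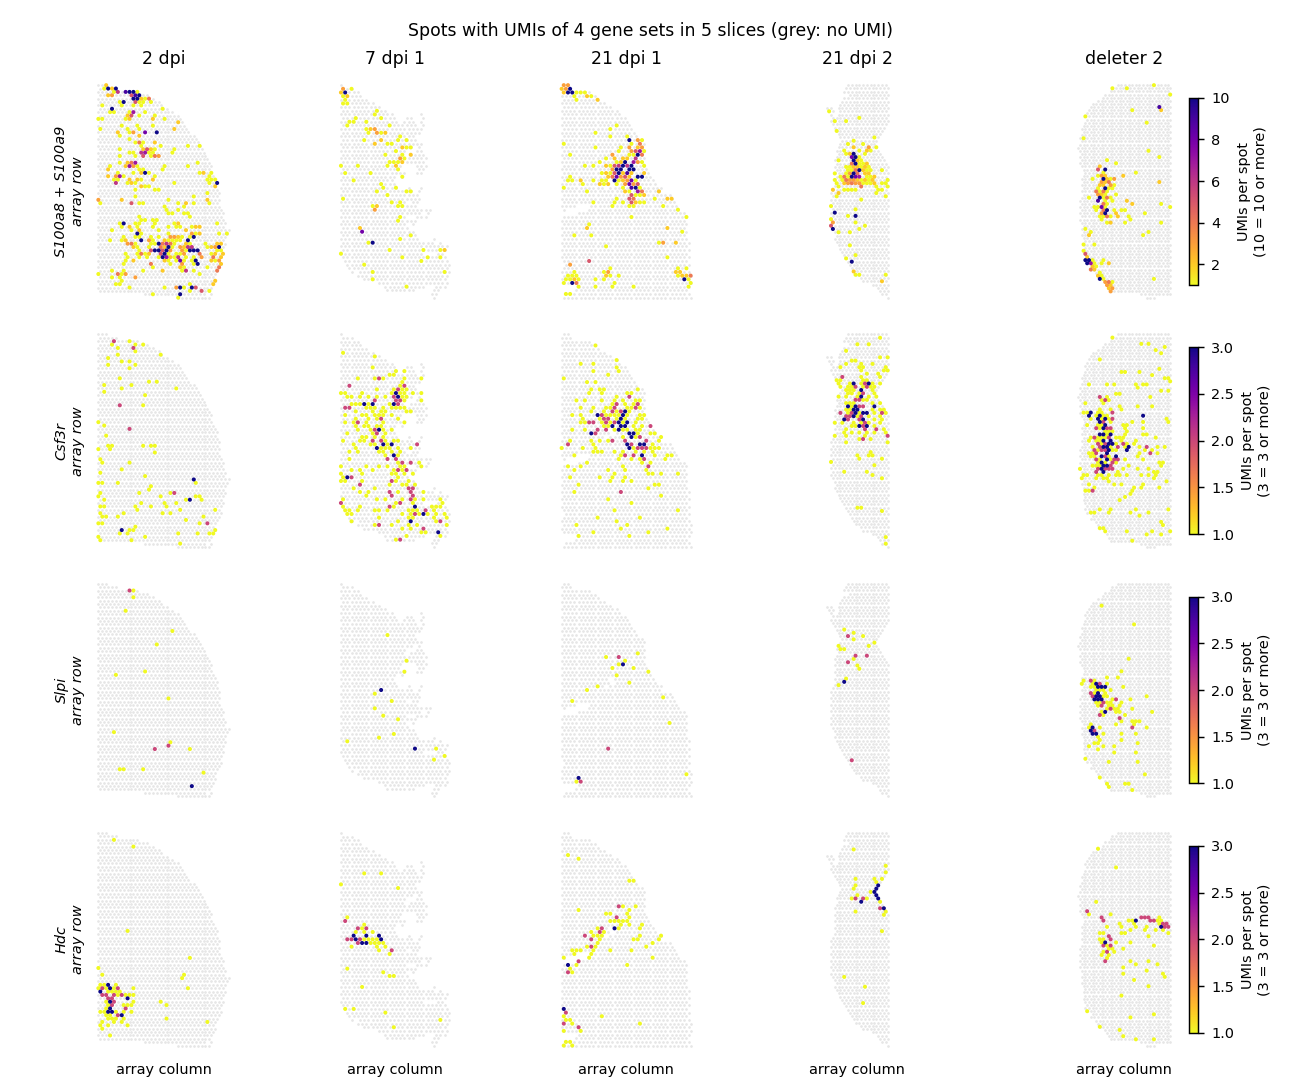
Maps by array column and row of S100a8 with S100a9, Csf3r, Slpi and Hdc in 5 slices (2 dpi, first 7 dpi, both 21 dpi and second deleter slice), with colour giving UMIs per spot up to a cap of 10 or 3. The spots of the 4 sets differ within a slice, and of the slices drawn the deleter slice has the most Slpi spots.

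The replicated comparisons asked how the genes changed between 7 and 21 dpi, between fibrotic and other tissue, and between genotypes. They were made on UMIs summed per slice, with the slice as the replicate, by edgeR's quasi-likelihood test with Benjamini-Hochberg adjustment over all genes tested. From 7 to 21 dpi no member changed by that test, and 6 of 15727 genes did (0.0382%; 0.0127% higher and 0.0254% lower at 7 dpi; 1946 at an unadjusted p under 0.05). S100a8 was lower at 7 dpi by a log2 difference of -2.36 ± 0.52 (SE, adjusted p = 0.211) and S100a9 by -2.63 ± 0.42 (adjusted p = 0.133), with both 7 dpi slices below both 21 dpi slices. By DESeq2, which called 398 genes, both passed, as they did with no filter on low counts (267 genes), and S100a9 passed without the richest spot of each slice (7 genes). Over 11 alternatives the adjusted p ran from 5.55e-05 to 0.45 for S100a8 and from 2.02e-08 to 0.353 for S100a9. The difference of Csf3r was 0.34 ± 0.14 (adjusted p = 0.409) and that of Il1r2 0.95 ± 0.41 (adjusted p = 0.436), and Cxcr2 did not pass the filter on low counts. Hdc, Slpi, Il1b and Retnlg had differences of -1.21 to -0.48 with adjusted p of 0.514 to 0.736.

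Fibrotic spots were those with at least 5 Col1a1 UMIs per 10000 (Col1a1 encodes the main fibrillar collagen of scars) and were set against spots with no Col1a1 UMI in the same slice. S100a8 stood at 0.508 and 0.209 per 10000 in the fibrotic spots of the 7 dpi slices and 0.778 and 1.98 in those of the 21 dpi slices, and at 0.0253, 0.00768, 0.0356 and 0.0363 in their Col1a1-free spots. Every fibrotic value lay above every Col1a1-free value. Single fibrotic spots held 26 of the 100 S100a8 UMIs of the first 7 dpi slice and 41 of the 100 of the second. In the second 21 dpi slice a single fibrotic spot held 428 of 634. The spot in the first 7 dpi slice had 1903 UMIs in all and lay just past the limit, at 5.255 Col1a1 UMIs per 10000. In the first 21 dpi slice the richest spot (24 S100a8 UMIs) was in neither class. The log2 difference was 4.86 ± 0.25 (SE, 4 slices, adjusted p = 7.51e-05) for S100a8 and 4.76 ± 0.29 (adjusted p = 0.000129) for S100a9. Of the 9 genes 7 passed the filter on low counts and 6 of these were called higher, in a comparison in which 28.9% of 14147 genes were called higher and 27.9% lower. Without the spot richest in S100a8 and S100a9 in each slice the same 6 were called. Over 14 alternatives the log2 difference ran from 3.85 to 5.08 for S100a8 and from 3.54 to 5.18 for S100a9.

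Slpi differed by 2.65 ± 0.49 (adjusted p = 0.00325), Il1r2 by 2.22 ± 0.60 (adjusted p = 0.0171), Csf3r by 1.89 ± 0.30 (adjusted p = 0.00176) and Il1b by 1.86 ± 0.48 (adjusted p = 0.0137). Without the first 21 dpi slice Il1r2 lost its call (1.63, adjusted p = 0.057). Csf3r stood at 0.425, 0.316, 0.295 and 0.414 per 10000 in fibrotic spots and at 0.167, 0.141, 0.0726 and 0.0485 in Col1a1-free spots of the same slices. Its fibrotic values overlapped between 7 and 21 dpi, and its Col1a1-free values were lower in both 21 dpi slices than in both 7 dpi slices. Hdc gave 0.97 ± 0.73 (adjusted p = 0.296) with 0 UMIs in the fibrotic spots of the first 7 dpi slice and 38 in its Col1a1-free spots. Without that slice it was called higher (1.63, adjusted p = 0.0478), and over 14 alternatives it ran from 0.26 to 1.63. Retnlg and Cxcr2 did not pass the filter. Retnlg had 0, 10, 8 and 7 UMIs in the fibrotic spots of the 4 slices and 1, 2, 5 and 1 in their Col1a1-free spots, and Cxcr2 had 4, 2, 5 and 3 against 0, 0, 0 and 2. With no filter both were called higher.

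**Figure D5:**
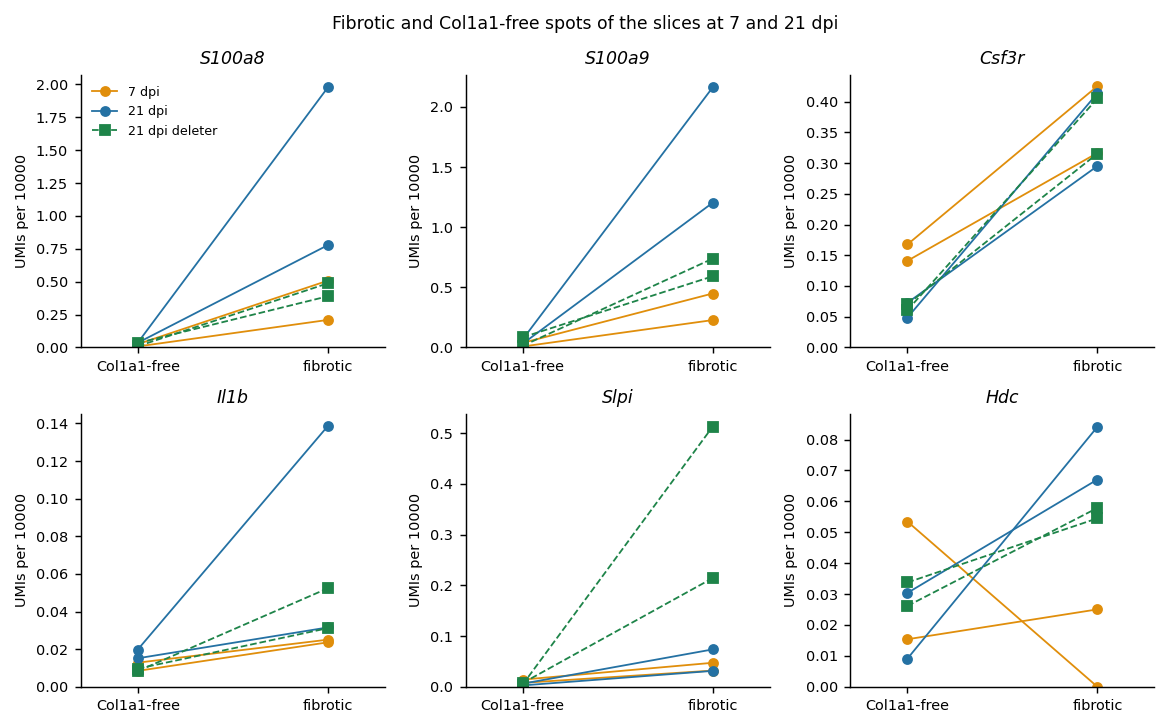
UMIs per 10000 UMIs of S100a8, S100a9, Csf3r, Il1b, Slpi and Hdc in Col1a1-free and in fibrotic spots, with the points of a slice joined and deleter slices drawn as squares with dashed lines. S100a8 and S100a9 are higher in the fibrotic spots of every slice drawn, while Hdc is lower there in 1 slice.

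The pathway lists moved in the same contrast. Of 28 other neutrophil genes 17 passed the filter, and 14 were called higher and none lower, including Camp (log2 6.11 ± 0.72), Ngp (5.99 ± 0.45), Ltf (5.94 ± 0.75) and Mmp8 (2.79 ± 0.54). A single fibrotic spot of the second 21 dpi slice held 79 of its 109 Camp, 74 of its 105 Ngp and 33 of its 52 Ltf UMIs. All 4 measurable genes of the list of CXCR2 ligands and colony-stimulating factor genes were called higher (Cxcl1 4.16 ± 0.64). So were 11 of 13 IL-1 genes (Il1rn 5.17 ± 0.25) with Il1rap called lower, 9 of 12 acute inflammation genes and all 7 adhesion genes. In the histamine list the receptors Hrh2 and Hrh3 and the degrading enzyme Hnmt were called lower. The fibroblast markers were called higher in full, 5 of 5, but they include Col1a1, which set the spot classes, so its call was fixed in advance. The marker lists of monocytes and macrophages were called higher in full, 5 of 5 each, and all 6 neuronal markers lower. The part of all these cell types in the values of the 9 genes was not tested.

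Whether the fibrotic contrast itself differed between 7 and 21 dpi was tested as an interaction. No member passed, against 4.01% of 14147 genes (0.82% with a higher and 3.19% with a lower contrast at 7 dpi). Estimates lay below 0, that is, the contrast was larger at 21 dpi, for all 7 tested members. They ran from -2.35 ± 1.15 for Hdc to -0.59 ± 0.53 for S100a8, and Csf3r (-1.21 ± 0.38, adjusted p = 0.12) and S100a9 (-1.29 ± 0.41, adjusted p = 0.132) came nearest. With no filter on low counts both passed (adjusted p = 0.0216 to 0.0377 at the lowest), and Csf3r also passed without the first 21 dpi slice. Cell type markers moved in the same interaction, with 4 of 5 macrophage, 3 of 6 microglial, 3 of 4 astrocyte and 2 of 2 plasma cell markers of those tested called lower and 3 of 6 neuronal markers called higher, and their part in the members' values was not tested.

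Wild-type and deleter slices at 21 dpi were compared in the same way. No gene passed among 15708 tested (0%; 529 at an unadjusted p under 0.05, and 12 by DESeq2). Slpi was lower in wild type by a log2 difference of -2.38 ± 0.25, with both deleter slices above both wild-type slices (adjusted p = 0.694). It passed by DESeq2 and with no filter on low counts, and its adjusted p ran from 6.86e-06 to 1.00 over 10 alternatives. Il1r2 differed by -1.26 ± 0.42 and the other 7 genes by -0.62 to 0.72, each with an adjusted p of 0.999. S100a8 (0.72 ± 0.68) and S100a9 (0.41 ± 0.62) changed sign, to -0.19 and -0.34, without the spot richest in the pair in each slice. Among the spots left out was the single rich spot of the second 21 dpi slice.

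Finally, spots on the tissue edge were compared with interior spots over all 8 slices. No member passed, against 3.64% of 15409 genes (3.07% higher and 0.571% lower at the edge). Slpi was lower at the edge by -1.07 ± 0.40 (adjusted p = 0.184) and Il1r2 by -0.98 ± 0.43 (adjusted p = 0.252), and Retnlg was higher by 1.32 ± 0.72 (adjusted p = 0.366). The other 6 lay between -0.48 and 0.50.

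The genes whose levels followed S100a8 and S100a9 most closely over the 8 slices were Cfap45 (Pearson r = 0.991 on log2 levels), Nup85 (0.979), Apod (0.976), Ppp1r36, Fxyd1, Tcf7, Ibtk, Spata5, Dock5 and Fam216b (0.954), out of 16363 genes with at least 50 UMIs. Among the other members Hdc was closest at 0.896, followed by Cxcr2 (0.743), Retnlg (0.72), Il1r2 (0.651), Il1b (0.651), Csf3r (0.565) and Slpi (0.545). These are descriptions over 8 slices that share capture areas, and the top of the ranking held no other neutrophil gene of the lists used here.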

How the data were processed

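The authors aligned the reads to mm10 with Space Ranger 2.0.0 (per the labels) and deposited the resulting count matrices, in which each value is a number of UMIs that was not normalized, for 4 capture areas. In each area the 2 connected tissue pieces were taken as 2 slices. Areas shared 1564 to 1959 spot barcodes pairwise, since the slides carry 1 fixed set of barcodes, so a shared barcode is no shared cell. No spot was left out. The members and gene lists were chosen with earlier results of these data known. All 9 members are described in every comparison; list genes are named where called, past 4-fold or abundant, and the genes most like the calprotectin pair by Pearson correlation of log2 levels with a pseudocount of 0.01.

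Counts were summed per slice or per slice and spot class and tested with edgeR 4.0.16 in R 4.3.3 (TMM, filterByExpr, quasi-likelihood F test, Benjamini-Hochberg threshold 0.05), with slice as a block within slices. The SE of an edgeR estimate was derived from the test, as the log2 difference without its sign divided by the square root of F. DESeq2 1.42.0 was an alternative. Scripts were tested on simulated data. Comparisons with 1 slice a side used 4-fold among genes with at least 20 UMIs and exact 95% intervals (Poisson for levels and ratios, binomial for shares), which cover counting error only. A count of 0 was given a floor of 3 counts. Thinning drew 500 UMIs from each spot. Spots of 1 slice are not replicates. Promoters came from RefSeq and gene positions from the GENCODE annotation, both on GRCm38.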

Additional observations from a re-analysis of the deposited data

Results flagged for a closer look

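The contrast between fibrotic and Col1a1-free spots differed between 7 and 21 dpi for 15 genes of the pathway lists, by edgeR's interaction test with 4 slices and an adjusted p under the threshold, in a comparison in which 4.01% of all genes passed and markers of macrophages (4 of 5), microglia (3 of 6), astrocytes (3 of 4) and plasma cells (2 of 2) were lower and of neurons (3 of 6) higher. As log2 values for 7 minus 21 dpi, the neutrophil list gave Lcn2 -5.51, Wfdc17 -2.76, G0s2 -1.63 and Ifitm2 -1.05. The colony-stimulating factor and IL-1 lists gave Csf2rb2 -2.98, Pycard -1.52 and Il18bp -1.78, and the receptor list gave Cd36 -3.73. Acute inflammation genes were Nfkbia -1.14, Ptx3 -4.98 and Saa3 -2.74, and adhesion genes Icam1 -1.60, Vcam1 -1.54 and Itgb2 -2.18. The histamine receptor Hrh3 was the one with a positive value, 1.53.

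For 4 of the 9 genes both slices of 1 group were higher at the tissue edge and both of another lower, and the difference between the groups was not tested. Retnlg was lower at the edge in wild-type slices and higher in deleter slices at 21 dpi (difference of the mean edge excess -0.057 UMIs per 10000). With 1 and 0 edge UMIs in wild type and 2 and 21 in deleter slices, it rests on few counts. Csf3r was higher at the edge at 7 dpi and lower at 21 dpi (difference 0.0789), as was Slpi (0.0128, with 2 to 4 edge UMIs a slice). Hdc was higher at the edge in wild-type slices, at 0.171 and 0.191 per 10000 against 0.0424 and 0.0278 in the interior, and lower in deleter slices, at 0.0594 and 0.0321 against 0.0707 and 0.0465 (difference 0.158).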

How the results depend on the processing

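Most values kept their direction and their side of the threshold. At 2 dpi against rest, the 8 members past 4-fold became 5 among spots of at least 8000 UMIs, where Cxcr2 and Slpi had too few UMIs and Csf3r was at 3.75-fold, and 2 after thinning, where the others had too few UMIs. Of the 5 in RNA-poor spots, thinning left 2 and a comparison with spots of 2000 to under 8000 UMIs (chosen after seeing the data) left 0. Per spot 0 remained and S100a8 (0.499), S100a9 (0.387), Retnlg (0.31), Il1r2 (0.255) and Slpi (0.419) turned to lower. From 7 to 21 dpi, calls over all genes went from 6 to 398 with DESeq2, 267 with no filter, 400 with the deleter slices added, 1 in a fit over all 8 slices and 7 to 335 with a slice left out (335 and 39 without the first and the second 7 dpi slice). Between genotypes they went from 0 to 12 with DESeq2, 40 with no filter and 0 to 3 with a slice left out. The interaction went from 567 to 1433 with no filter and 60 to 776 with a slice left out (167 and 60 without the first and the second 7 dpi slice, 306 without the second 21 dpi slice), and the edge comparison from 561 to 64 in wild-type injured slices and 338 to 830 with a slice left out (371 and 338 without the first and the second deleter slice). The causes were not tested.

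In the replicated comparisons, members that changed sign were not called before or after. Between genotypes, leaving out 1 slice at a time gave log2 differences of -0.24 to 1.81 for S100a8 and -0.28 to 1.55 for S100a9 (-0.25 in a further fit), -0.43 to 0.16 for Retnlg, -1.33 to 0.32 for Cxcr2, -0.22 to 0.21 for Csf3r (0.08 in a further fit), -0.90 to 0.92 for Il1b (-0.49 in a further fit) and -0.43 to 0.17 for Hdc. Leaving out the spot of each slice richest in S100a8 and S100a9 (chosen after seeing the data) gave S100a8 -0.19 and S100a9 -0.34. In the interaction Il1b ran from -1.71 to 0.072 with a slice left out. At the edge, S100a8 ran from -0.15 to 0.65 (-0.02 in a further fit), S100a9 from -0.0088 to 0.84 and Cxcr2 from -0.40 to 0.0098, a 2-spot edge gave S100a8 -0.059, and wild-type injured slices gave Cxcr2 0.14. The fibrotic contrast kept its count within 1.5 times of 8029 in every alternative.

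No paired analysis was possible between time points or genotypes because each slice came from a different mouse. Comparisons within slices had the slice as a block. Depth limits Cxcr2, Retnlg, Slpi and Il1r2, which had 33 or fewer UMIs in most slices, and 2 slices a group limit every test across time and genotype.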
